A study of Mus musculus with 16 samples.

Results

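The Nanog, Dppa3 and Gdf3 locus was taken as all listed CpG sites between positions 122575000 and 122695000 of chromosome 6 on GRCm39. The members are 3 genes. Gdf3 lies on the minus strand at about 122582361 to 122587043, Dppa3 starts at about 122603385 and Nanog lies at about 122684448 to 122691592, both on the plus strand. The locus held 245 of the 3179510 sites listed in any library, at 142 distinct CpGs, since each strand of a CpG is listed on its own. Of these, 87 sites were listed in all 16 libraries, 85 in 10 to 15, 37 in 2 to 9 and 36 in 1 library. No site was listed inside Nanog or within 3000 bp before its start, so the values below describe Gdf3, Dppa3 and the stretch between Dppa3 and Nanog.

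The samples came from a study of chemical reprogramming of mouse embryonic fibroblasts (MEFs), profiled by reduced representation bisulfite sequencing (RRBS). RRBS sequences fragments cut with MspI, whose site is CCGG, and reports the percent of reads at a CpG in which the cytosine was protected from bisulfite, here called the methylation level. The labels give 129XOG2 E13.5 embryo as the strain of all 16 samples, and OG2 mice carry a reporter of Oct4. The iPSC libraries came from induced pluripotent stem cells grown on feeders with LIF, CHIR99021 and PD0325901. The origin of these cells within the time course is not stated, and neither is a step that took the feeders away. The D2, D4, D6, D8, D10 and D12 libraries came from MEFs at days 2 to 12 in reprogramming medium, and the D0 libraries from MEFs of passages 1 to 3 that had not entered it. Each of the 8 groups had 2 libraries. Nothing in the labels makes the 2 libraries separate cultures, so the p-values below rest on a spread between libraries that may be technical. Because each library is a bulk sample, a smaller share of cells with methylated alleles and less methylation in every cell cannot be told apart.

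Nanog encodes a homeodomain transcription factor of the pluripotency network. Dppa3, also called Stella or PGC7, encodes a protein of oocytes, early embryos, primordial germ cells and pluripotent cells that guards maternal DNA against loss of methylation after fertilization. Gdf3 encodes a ligand of the TGF-beta family made by pluripotent cells. The genes are neighbours in a cluster that is expressed in pluripotent cells and silent in fibroblasts, and methylation of CpGs near a gene's start is commonly found where such genes are silent.

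Nanog is the member for which RRBS gave no listed site in its window, and the bases just before its start are shown for that reason. In the RefSeq table at hand, which is on GRCm38.p6 and not on the build of the files, the start of Nanog is preceded by these 250 bases of the plus strand at chr6:122707239-122707488, with each CG in capitals.
Nanog: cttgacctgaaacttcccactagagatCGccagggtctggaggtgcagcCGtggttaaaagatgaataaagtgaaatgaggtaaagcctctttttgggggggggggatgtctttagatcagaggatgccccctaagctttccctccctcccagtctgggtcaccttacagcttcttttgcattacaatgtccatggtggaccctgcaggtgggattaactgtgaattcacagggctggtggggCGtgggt
The printed bases hold 3 CGs, and the table's 300-base window around this start holds 4, where the median of all 32851 windows in the table is 7. The letters CCGG, which read the same on both strands, were in 0 of the 2 windows that the table gives for Nanog, where 52.8% of all windows hold them. Each of these windows is 300 bases long, while the stretch from 3000 bp before the start of Nanog to its end spans 10145 bp. Why no site was listed in that stretch was not tested. Of the 3 members, 1 matched in that table. For Dppa3 and Gdf3 no sequence is printed.

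The 245 sites fell into 16 blocks, where sites at most 500 bp apart share a block. Gdf3 had 1 block of 30 sites at 122586168 to 122586757, between 286 and 875 bp past its start and so inside the gene. Dppa3 had a block of 36 sites at 122603596 to 122604628, between 211 and 1243 bp past its start, and a block of 16 sites at 122605673 to 122605859, between 2288 and 2474 bp past it. The RefSeq gene is 3848 bases long on GRCm38.p6, and both blocks would lie inside a gene of that length. Exons and introns were not looked up, because no annotation of GRCm39 was used here. Between Gdf3 and Dppa3 there was 1 block of 4 sites, and between Dppa3 and Nanog there were 12 blocks with 159 sites. In RefSeq, this last stretch holds a small nucleolar RNA gene and the pseudogenes Gm8460, Gm10420 and Gm10224.

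**Figure D1:**
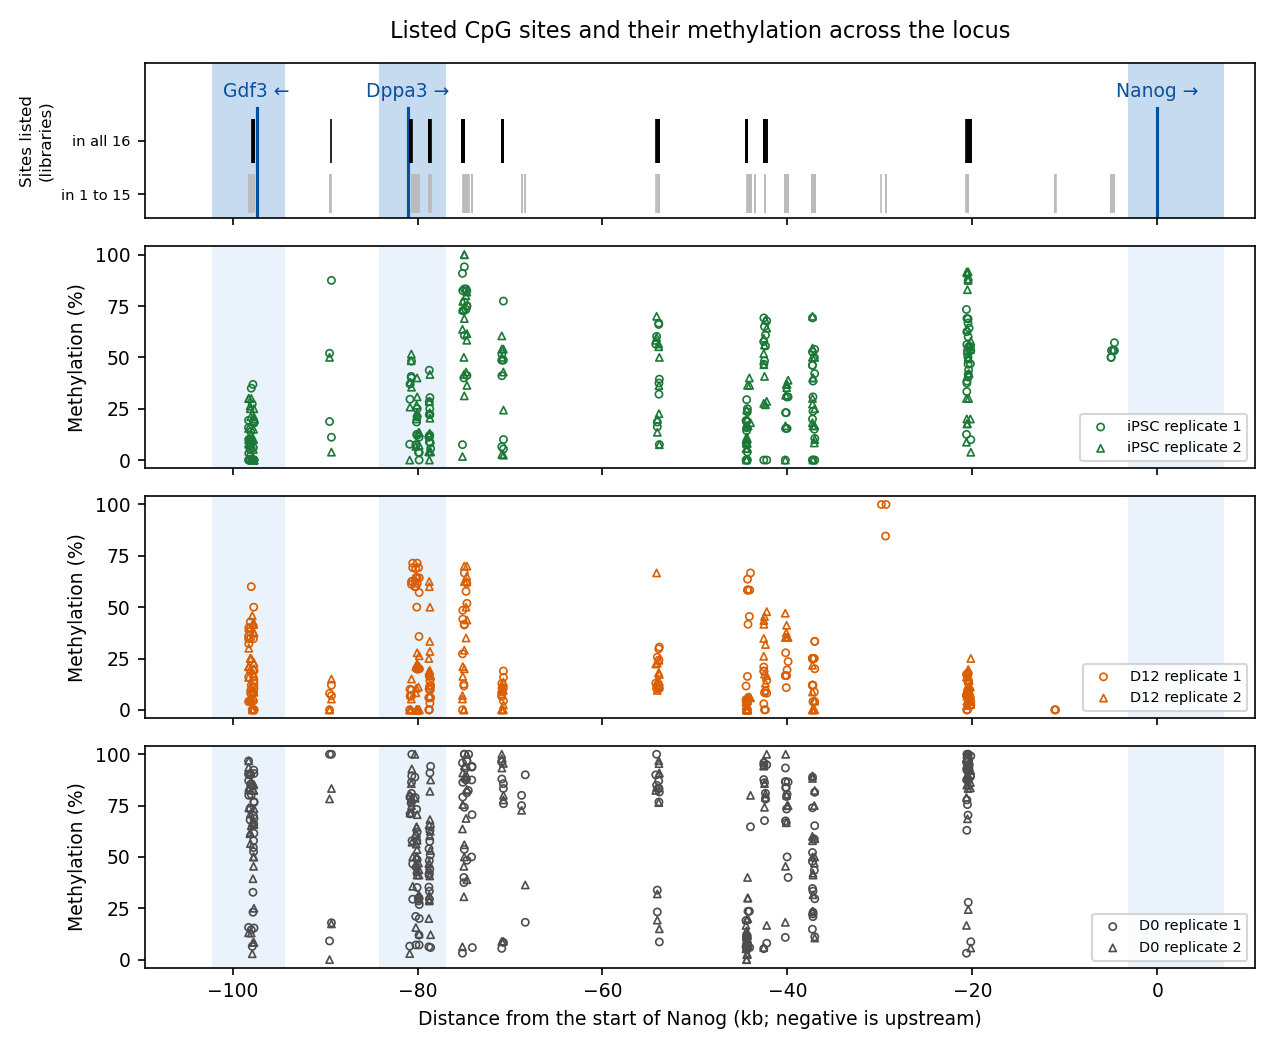
Map of the locus against the distance from the start of Nanog in kb. The top row marks sites listed in all 16 libraries (black) and in fewer (grey), with gene starts as blue lines, arrows for the direction of each gene and the 3 gene windows shaded; the other rows give each site's methylation in percent in iPSC, D12 and D0 libraries, circles for replicate 1 and triangles for replicate 2. No mark falls in the window of Nanog.

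Libraries listed between 137 and 213 sites of the locus, at 10 to 451 reads per site with a median of 24. The reads carry no molecular identifiers, so intervals and limits cover counting error only. Sites of 1 fragment share reads and are not independent. Across the genome, the mean over the 873038 sites listed in all libraries was 48.0% and 47.8% in iPSC libraries, 17.9% and 17.8% in D12 libraries, and 51.1% and 51.2% in D0 libraries. The strands of a CpG did not always give the same level. In D0, 16 of the 78 CpGs of the locus with both strands listed differed by at least 50 points between strands, or 20.5%, against 21.2% of 640644 CpGs in the genome. The forward strand was the low one at 8 of these and the reverse strand at the other 8. In 8 of the 16 blocks the first or the last CpG was among them, and the labels' protocol fills in the cut ends with Klenow enzyme. Where the first CpG of a block disagreed, the reverse strand was the low one, as at 122586168 with 95.1% forward and 14.4% reverse. At each last CpG that disagreed the forward strand was the low one, as at 122664287 with 7.18% forward and 95.6% reverse. The part of this in the results was not tested, and the values without these CpGs are given where they matter.

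The locus as a whole lost methylation during reprogramming and was partly methylated in iPSCs. Over the 87 sites listed in all libraries, the level was 34.4% and 34.9% in iPSC libraries, 8.89% and 12.2% in D12 libraries, and 60.4% and 58.2% in D0 libraries. The iPSC level lay between the other two with no overlap. The difference was -24.6 points (SE 1.12) for iPSC against D0, -48.7 points (SE 1.99) for D12 against D0 and +24.1 points (SE 1.68) for iPSC against D12. An exact two-sided permutation test of 2 against 2 libraries gave p = 0.333 for each, which is the smallest p that this design allows. Without the CpGs whose strands disagree, a setting chosen after seeing the data, these differences were -26.3, -52.9 and +26.6 points. The levels here pool reads, while the genome means above count each site alike. Counted in that way, the 87 sites had 32.6% and 32.0% in iPSC, 9.64% and 12.9% in D12, and 56.2% and 56.5% in D0 libraries.

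By day, the locus stayed near its starting level through D4, at 57.2% ± 1.52 at D2 and 56.1% ± 1.87 at D4 (SD, n = 2 each). At D6 it stood at 48.4% ± 2.18 and at D8 at 29.0% ± 3.17 (SD, n = 2 each). It had 19.4% ± 3.54 on D10, and the D12 mean was 10.5% ± 2.35 (SD, n = 2 each). The step between D6 and D8 was the one with the largest difference between neighbouring means. Levels were also read in 1-kb tiles with at least 3 sites listed in all libraries, of which the locus held 11 of 94337. A tile counted as called with a Benjamini-Hochberg adjusted p under 0.05 in edgeR's quasi-likelihood test and a difference of 10 points or more between group means. Against D0, 0 of the 11 tiles were called at D2, where 0.0488% of all tiles were called lower and 0.0% higher, and 0 at D4, where 0.0763% were called lower and 0.00424% higher. At either day, 0 of the 11 had an unadjusted p under 0.05, by edgeR or by a quasi-binomial model of the same tiles. At D6, 1 tile was called lower (21.3% of all tiles), the one at 122613001 to 122614000. This call did not outlast the loss of any 1 library, with 0 tiles called in each such fit. Called lower were 8 tiles at D8 (72.3% of all), 10 at D10 (81.6%) and 10 at D12 (82.7%), shares of the locus that lie near those of the genome. Called higher were 0 tiles at D6 (0.104% of all), D8 (0.544%), D10 (0.201%) and D12 (0.649%), with 0 at an unadjusted p under 0.05 by either model.

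Single sites followed the same days. They were tested with a quasi-binomial model per site, and a site counted as called at an adjusted p under 0.05 and a difference of at least 10 points. The dispersion was moderated across all sites, and in every contrast genome-wide values fully replaced each site's own. A site's own spread between libraries thus did not enter its p-value. At D2, 0 of 148 sites were called, where 0.135% of all sites tested were called lower and 0.000964% higher, with 8 lower and 0 higher at an unadjusted p under 0.05. At D4, 0 of 136 sites were called, against 0.214% lower and 0.0269% higher over all sites, with 2 lower and 6 higher at an unadjusted p under 0.05. At D6, 6 of 137 sites were called lower, where 6.66% of all sites were. All 6 lay between Dppa3 and Nanog, as did 89 of the 137 sites tested. The 1 site called higher at D6 (0.209% of all sites), 122664011 on the reverse strand, had 40.6% and 59.3% at D6 against 27.9% and 24.4% in D0 libraries (+23.8 points, quasi-binomial adjusted p = 0.0477). Its CpG is one whose strands disagree in D0, with 89.8% on the forward strand, and the site was named after its values were seen. Without 1 library, between 0 and 3 sites were called lower at D6 and 0 higher. At D8, 61 of 136 sites were called lower (34.5% of all sites), or 37 without D0 replicate 1, and 2 higher (1.65%). At D10, 103 of 166 were called lower (48.1%) and 0 higher (0.792%), with 0 higher at an unadjusted p under 0.05.

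**Figure D2:**
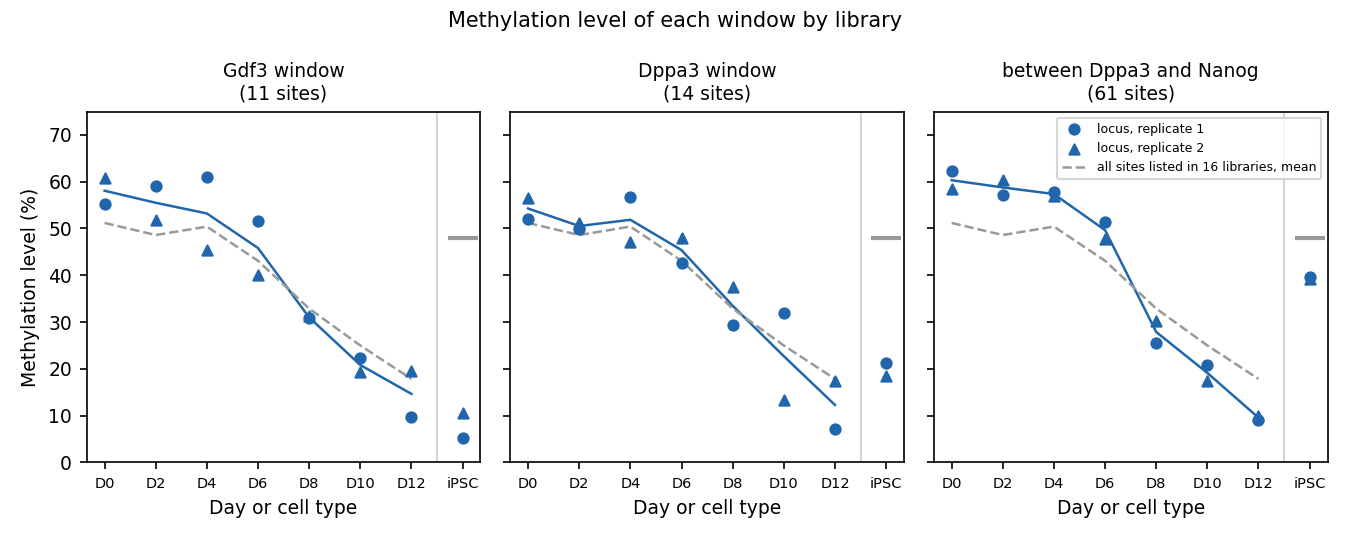
Methylation level in percent (vertical axis) of the Gdf3 window, the Dppa3 window and the stretch between Dppa3 and Nanog in each library, by day from D0 to D12 and in iPSCs. Circles and triangles are replicates 1 and 2, lines join group means, and the grey dashes give the mean of all sites listed in 16 libraries. That mean counts each site alike, while the window levels pool reads. In iPSCs the Gdf3 window lies between 5.12% and 10.5%, the Dppa3 window between 18.4% and 21.2% and the stretch between 39.3% and 39.5%.

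Gdf3 was methylated in fibroblasts and low in iPSCs. At the 11 sites listed in all libraries, the Gdf3 window had 5.12% and 10.5% in iPSC libraries, 9.80% and 19.5% in D12 libraries, and 55.3% and 60.8% in D0 libraries. The iPSC and D12 libraries each lay below both D0 libraries, and the iPSC and D12 libraries overlapped. An exact two-sided permutation test gave p = 0.333 for either group against D0, the smallest possible, and p = 0.667 for iPSC against D12. Its coverage summed over these sites was 249 to 743 per library, in which a read over several sites counts at each of them. During reprogramming it had 59.1% and 51.8% at D2, 61.0% and 45.4% at D4, 51.6% and 40.0% at D6, 30.8% and 31.2% at D8, and 22.2% and 19.4% at D10. The spread between the 2 libraries was widest at D4, and the D8 libraries were the first to lie below all earlier ones.

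All common sites of Gdf3 fell in 1 tile, 122586001 to 122587000. That tile differed by -50.3 points between iPSC and D0 (edgeR adjusted p = 0.000281) and by -43.4 points between D12 and D0 (edgeR adjusted p = 6.82e-05). Between iPSC and D12 it differed by -6.84 points and was not called (edgeR adjusted p = 0.0872). Without D12 replicate 1 that difference was -11.7 points and the tile was called lower in iPSCs, and in the other settings run 0 of the locus tiles were called lower there. Of all tiles, 1.13% had a difference between iPSC and D0 as low as that of the Gdf3 tile or lower.

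Site by site, 23 of the 30 sites tested in Gdf3 were called lower in iPSC than in D0 by the quasi-binomial model, and 0 were called higher. In the whole locus 69 of 161 sites were called lower, where 6.32% of all sites tested were, and 0 higher, where 2.93% were. The count lower was 45 without iPSC replicate 1 and 41 without D0 replicate 1. At an unadjusted p under 0.05, 0 of the Gdf3 sites and 1 of the 161 were higher. Of the 24 Gdf3 sites at 50% or more in D0, 23 were under 20% in iPSCs and 0 were at 50% or more. The same shares over all sites were not computed. By tiles and at another threshold, 373 of the 66731 tiles at 50% or more in D0 (0.559%) were under 15% in iPSCs. The called site with the largest difference, at 122586180 on the forward strand, had 10.0% and 7.69% in iPSC libraries, against 87.1% and 96.8% in D0 libraries, a difference of -83.1 points (quasi-binomial adjusted p = 3.77e-10). At D12, 21 of the 30 sites were called lower than in D0, where 52.3% of all sites tested were, and 0 higher, where 2.43% were. The largest of these differences was at 122586398 on the reverse strand, with 8.00% and 25.0% in D12 libraries against 90.2% and 91.3% in D0 libraries (-74.3 points, quasi-binomial adjusted p = 3.42e-08).

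The listed site nearest to the start of Gdf3, 286 bp past it at 122586757, had 0 of 18 and 4 of 20 methylated reads in iPSC libraries. In the first of these, a count of 0 allows up to 16.7%. It had 19.1% and 22.9% in D12 libraries, and 76.6% and 73.5% in D0 libraries. The difference was -65.0 points for iPSC against D0 (quasi-binomial adjusted p = 0.000119) and -54.0 points for D12 against D0 (quasi-binomial adjusted p = 3.88e-06). The first of these calls was lost without iPSC replicate 1 (-55.0 points, quasi-binomial adjusted p = 0.0528). Its CpG is one whose strands disagree in D0, with 11.9% on the forward strand, and with strands merged the differences were -51.3 and -39.6 points. On the reverse strand the site had 71.4% and 66.7% at D8, and 37.5% and 27.6% at D10. In iPSC against D12, 2 of 30 Gdf3 sites were called lower, where 2.46% of all sites tested were, at 122586687 and 122586722 on the forward strand, both with 0 methylated reads in each iPSC library. The site at 122586722 had 0 of 11 and 0 of 10 methylated reads in iPSC libraries, which allows up to 27.3% and 30.0%, against 50.0% and 41.7% in D12 libraries (-45.8 points, quasi-binomial adjusted p = 0.00437). Its call was lost without either iPSC library (quasi-binomial adjusted p = 0.0685 without replicate 1 and 0.0546 without replicate 2), and with strands merged the difference was -21.8 points.

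**Figure D3:**
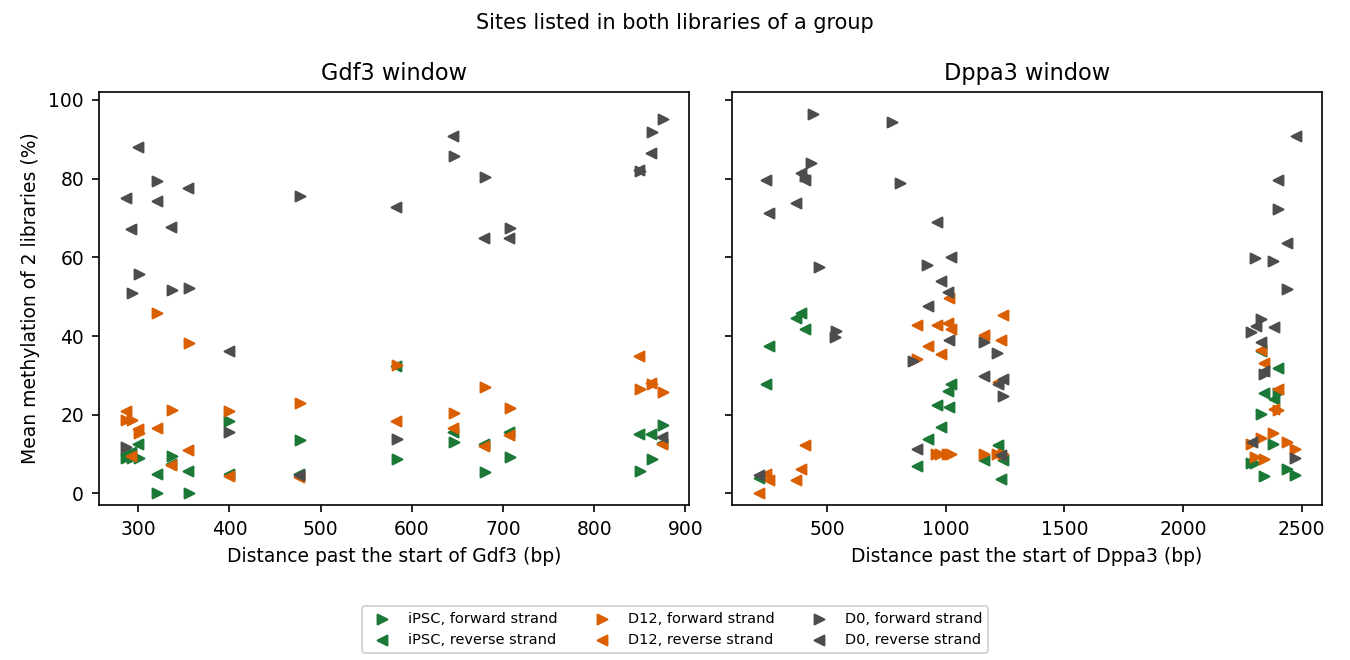
Mean methylation in percent of both libraries at each site of the Gdf3 and Dppa3 windows, against the distance past the gene's start in bp, for iPSC (green), D12 (orange) and D0 (grey). Triangles pointing right are the forward strand and triangles pointing left the reverse strand. Green marks stay at or below 32.5% in the Gdf3 window and reach 45.8% in the Dppa3 window near its start.

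Dppa3 was also lower at D12 and in iPSCs than in D0, in both of its tiles. In the block near its start, tile 122603001 to 122604000 with 6 sites on the reverse strand had 34.0% and 33.7% in iPSC libraries, 6.82% and 3.48% in D12 libraries, and 65.4% and 65.4% in D0 libraries. The 3 groups did not overlap. In the block further into the gene, tile 122605001 to 122606000 with 8 sites on the forward strand had 16.2% and 8.87% in iPSC libraries, 7.22% and 20.2% in D12 libraries, and 43.8% and 51.3% in D0 libraries. Here the iPSC and D12 libraries overlapped, and both groups lay below D0.

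The tile near the start of Dppa3 differed by +28.7 points between iPSC and D12 (edgeR adjusted p = 2.17e-05), by -31.6 points between iPSC and D0 (edgeR adjusted p = 0.00446) and by -60.3 points between D12 and D0 (edgeR adjusted p = 5.32e-07). The tile further in differed by -1.18 points between iPSC and D12 and was not called (edgeR adjusted p = 0.967). It differed by -35.0 points between iPSC and D0 (edgeR adjusted p = 0.0286) and by -33.8 points between D12 and D0 (edgeR adjusted p = 0.00436). The call between iPSC and D0 was lost when any 1 of the 4 libraries was left out, with adjusted p between 0.0612 and 0.177. Whether the gain from D12 to iPSC differs between these tiles was not tested.

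The tiles of Dppa3 were also read by day, and whether their courses differ was not tested. The tile near the start had 69.4% and 58.7% at D2, 70.0% and 60.6% at D4, 53.8% and 51.0% at D6, 47.2% and 60.1% at D8, and 30.6% and 26.7% at D10. At D8 it was not called against D0 (-11.7 points, edgeR adjusted p = 0.0953), although it was without D8 replicate 2 (-18.2 points, adjusted p = 0.0370). The tile further in had 24.2% and 24.7% at D8, and 32.8% and 8.66% at D10. At D8 it was not called against D0 either (-23.1 points, edgeR adjusted p = 0.0726). The 2 D10 libraries were the furthest apart of any group in the tile further in.

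Over the whole Dppa3 window, with 14 sites listed in all libraries, the level was 21.2% and 18.4% in iPSC libraries, 7.12% and 17.4% in D12 libraries, and 52.1% and 56.4% in D0 libraries. The difference of +7.48 points (SE 5.34) between iPSC and D12 depended on which sites were taken. It was +28.7 points within 1000 bp of the start, -0.363 points over all sites that each library lists and -0.574 points at sites with at least 20 reads. The window mean joins 6 sites near the start, whose pooled level was higher in iPSC than in D12 libraries, and 8 sites further in. At those 8 sites the pooled levels of the 2 groups overlapped.

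Among the sites of Dppa3, 11 of 29 were called lower in iPSC than in D0, where 6.32% of all sites tested were, and 0 higher, where 2.93% were. The largest of these differences was at 122605690 on the forward strand, with 11.4% and 4.00% in iPSC libraries against 54.0% and 65.6% in D0 libraries (-52.1 points, quasi-binomial adjusted p = 0.00107). Its call was lost without moderation of the dispersion (quasi-binomial adjusted p = 0.112). In D12 against D0, 13 of 32 sites were called lower, where 52.3% of all sites tested were, and the largest difference was at 122603775 on the reverse strand, with 6.90% and 5.26% in D12 libraries against 77.0% and 85.7% in D0 libraries (-75.3 points, quasi-binomial adjusted p = 1.92e-08). In iPSC against D12, 4 of 29 sites were called higher, where 50.6% of all sites tested were. The largest difference among these was at 122603756 on the reverse strand, with 40.7% and 48.4% in iPSC libraries against 6.67% and 0% in D12 libraries (+41.2 points, quasi-binomial adjusted p = 0.00146). The site nearest to the start of Dppa3, 211 bp past it at 122603596, was low throughout, with 2 of 26 and 0 of 28 methylated reads in iPSC libraries, 0 of 26 and 0 of 19 in D12 libraries, and 6.56% and 2.94% in D0 libraries. A count of 0 allows up to 10.7% in iPSC replicate 2, and up to 11.5% and 15.8% in the D12 libraries. It is the first site of its block, and its forward partner was listed in no library. At the first CpGs of other blocks whose strands disagreed in D0, the reverse strand was the low one. The level of this CpG on its forward strand is thus not known.

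In a run of 11 reverse-strand sites at 122604265 to 122604628, between 880 and 1243 bp past the start of Dppa3, the D12 libraries lay far from each other. The pooled level of the run was 10.5% and 18.8% in iPSC libraries, 60.5% and 20.5% in D12 libraries, and 36.1% and 40.9% in D0 libraries. D12 replicate 1 lay above every D0 and iPSC library, and D12 replicate 2 lay below D0. The run had at most 14 and 19 reads per site in these D12 libraries. It stood at 56.5% and 51.7% at D8 and at 3.83% and 14.4% at D10. The only 2 sites of the locus called higher in D12 than in D0 were in it, at 122604265 (+31.3 points, quasi-binomial adjusted p = 0.0415) and 122604618 (+29.3 points, quasi-binomial adjusted p = 0.0471), and the same positions were the 2 called higher at D8 (+42.1 and +29.8 points). These were named after their values were seen. Of all sites tested, 2.43% were called higher in D12. The count in the locus was 4 without D12 replicate 2, 1 without D12 replicate 1 or D0 replicate 2, and 0 without D0 replicate 1. At D8 it was 1 without either D8 library and 0 without D0 replicate 1. Of the 6 sites of the locus called lower in iPSC than in D12 (2.46% of all sites tested), 3 were in this run, 2 were in Gdf3 and 1, at 122644224, lay between Dppa3 and Nanog. Without D12 replicate 2 there were 10 such sites, and without iPSC replicate 1 there was 1.

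Between Gdf3 and Dppa3 the block of 4 sites lay 8253 to 8459 bp before the start of Dppa3, and 1 of its sites was listed in all libraries. That site, at 122595131 on the forward strand, had 11.1% and 3.85% in iPSC libraries, 12% and 15% in D12 libraries, and 17.9% and 17.4% in D0 libraries. Both CpGs of the block were among those whose strands disagree in D0. The CpG at 122594926 had 89.1% on the forward and 4.55% on the reverse strand there, and the CpG at 122595131 had 17.7% on the forward and 91.7% on the reverse strand. The site at 122594926 on the forward strand had 52.0% and 50.0% in iPSC libraries, 8.00% and 0% in D12 libraries, and 100% and 78.3% in D0 libraries. It was called higher in iPSC than in D12 (+47.0 points, quasi-binomial adjusted p = 0.000507) and lower in iPSC than in D0 (-38.1 points, quasi-binomial adjusted p = 0.00727). The call against D0 was lost without iPSC replicate 1 (-39.1 points), iPSC replicate 2 (-37.1 points) or D0 replicate 1 (-27.3 points). It was also lost without moderation of the dispersion (quasi-binomial adjusted p = 0.0999). The site at 122595132 on the reverse strand had the largest difference here between D12 and D0, with 6.90% and 5.26% in D12 libraries against 100% and 83.3% in D0 libraries (-85.6 points, quasi-binomial adjusted p = 1.45e-08). With the strands of its CpG merged, the difference was -34.0 points and still called.

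The stretch between Dppa3 and Nanog had 61 sites listed in all libraries. Among the gene windows and the stretches between genes, its iPSC level stood furthest above D12. It had 39.5% and 39.3% in iPSC libraries, 9.08% and 10.0% in D12 libraries, and 62.3% and 58.3% in D0 libraries, with no overlap between groups. The difference was +29.9 points (SE 0.480) for iPSC against D12, -20.9 points (SE 1.97) for iPSC against D0 and -50.8 points (SE 2.02) for D12 against D0, each with an exact two-sided permutation p of 0.333. The first of these is near the +28.7 points of the tile near the start of Dppa3. It is also near the genome's gain, with means over all common sites of 48.0% and 47.8% in iPSC and 17.9% and 17.8% in D12 libraries. The median difference over all tiles was +43.7 points. Of the stretch's 64 sites at 50% or more in D0 that were also listed in both iPSC libraries, 38 were at 50% or more in iPSCs and 2 were under 20%. In the Dppa3 window these counts were 0 and 4 of 14. The shares of all sites that stay high or fall low in this way were not computed.

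Its 8 tiles did not all do the same. The tile 122609001 to 122610000, in the block that begins 5920 bp past the start of Dppa3, had 56.4% and 47.4% in iPSC libraries, 28.7% and 14.7% in D12 libraries, and 56.5% and 45.8% in D0 libraries. Between iPSC and D0 the libraries overlapped and the means lay +0.77 points apart (edgeR adjusted p = 0.982). The tile 122613001 to 122614000 had 36.3% and 36.6% in iPSC libraries, 10.3% and 6.01% in D12 libraries, and 67.8% and 70.3% in D0 libraries. Its iPSC libraries lay below both D0 libraries (-32.6 points, edgeR adjusted p = 0.000767). The tile 122630001 to 122631000, in the next block with a tile, had 43.0% and 42.7% in iPSC libraries, 11.9% and 14.6% in D12 libraries, and 65.3% and 66.3% in D0 libraries (iPSC against D0 -22.9 points, edgeR adjusted p = 0.00302).

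The tile 122640001 to 122641000, in a block about midway between the genes, was low in every group. It had 12.7% and 11.4% in iPSC libraries, 1.74% and 0.956% in D12 libraries, and 8.64% and 7.07% in D0 libraries. It was the 1 tile of the 11 not called at D12 against D0 (-6.51 points, edgeR adjusted p = 0.00212, under the 10 points asked for), and it was higher in iPSC than in D12 by 10.7 points (edgeR adjusted p = 0.000434). Next to it, the tiles 122641001 to 122642000 and 122642001 to 122643000 had iPSC means of 46.8% ± 1.41 and 47.9% ± 6.61, against D0 means of 69.2% ± 0.788 and 66.3% ± 4.86 (SD, n = 2 each). Neither was called between iPSC and D0 (-22.4 points, edgeR adjusted p = 0.128, and -18.4 points, edgeR adjusted p = 0.184), and both were called over all sites listed in these 2 groups (-26.0 points, adjusted p = 0.0119, and -23.5 points, adjusted p = 0.0248). They hold 5 and 3 sites, and their coverage summed over these sites was as low as 61 and 37 in a library.

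Nearest to Nanog among the blocks listed in all libraries were 26 sites at 122663818 to 122664288, between 20160 and 20630 bp before its start. Their tiles had the highest D0 levels of the locus. The tile 122663001 to 122664000 had 52.9% and 68.0% in iPSC libraries, 6.44% and 7.45% in D12 libraries, and 84.2% and 81.7% in D0 libraries. The tile 122664001 to 122665000 had 42.8% and 42.6% in iPSC libraries, 5.73% and 9.18% in D12 libraries, and 77.0% and 74.1% in D0 libraries. Neither tile's groups overlapped. The differences between iPSC and D0 were -22.5 points (edgeR adjusted p = 0.0109) and -32.9 points (edgeR adjusted p = 0.000279), and those between iPSC and D12 were +53.5 points (edgeR adjusted p = 1.18e-06) and +35.2 points (edgeR adjusted p = 6.18e-07). The first of these calls between iPSC and D0 was lost without iPSC replicate 1 (-14.9 points), without D0 replicate 1 and at sites with at least 20 reads. The site at 122664002 on the reverse strand had 87.5% and 91.7% in iPSC libraries, 10.0% and 9.52% in D12 libraries, and 87.5% and 94.1% in D0 libraries, and its difference of +79.8 points between iPSC and D12 was the largest of the called sites (quasi-binomial adjusted p = 1.62e-07). The site at 122663862 on the reverse strand had the largest difference between D12 and D0, with 6.67% in each D12 library against 100% and 94.4% in D0 libraries (-90.6 points, quasi-binomial adjusted p = 2.03e-17). The site of the stretch with the largest difference between iPSC and D0, at 122644262 on the reverse strand, had 15.4% and 31.6% in iPSC libraries against 83.8% and 100% in D0 libraries (-68.4 points, quasi-binomial adjusted p = 0.000756).

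Closer to Nanog, 8 reverse-strand sites at 122679456 to 122679824, between 4624 and 4992 bp before its start, were listed in 2 libraries of different groups. The nearest of them, at 122679824, had 8 of 14 methylated reads in iPSC replicate 1 (57.1%, 95% Clopper-Pearson interval 28.9% to 82.3%) and 8 of 10 in D8 replicate 2 (80.0%, interval 44.4% to 97.5%). The intervals overlap, and no test between groups was possible. No statement about methylation at the start of Nanog can be made from these files.

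**Figure D4:**
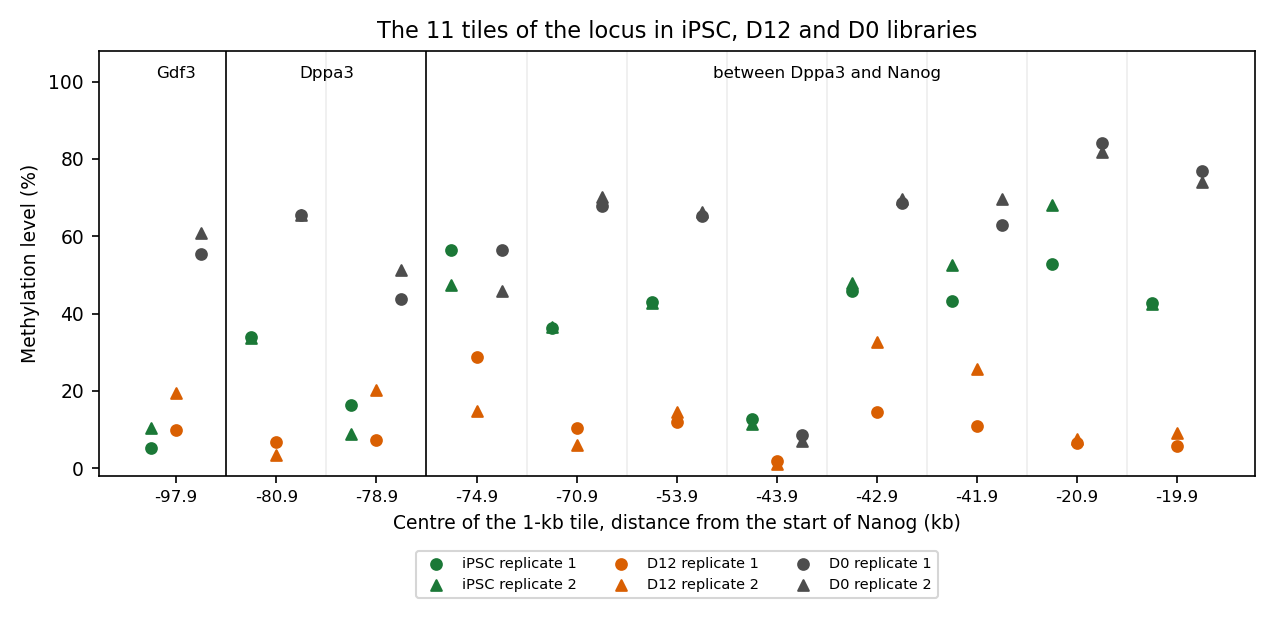
Methylation level in percent of the 11 tiles of the locus in each iPSC (green), D12 (orange) and D0 (grey) library, with circles for replicate 1 and triangles for replicate 2; the horizontal axis gives each tile's centre as distance from the start of Nanog in kb. The iPSC libraries lie beside the D12 level in the Gdf3 tile and the second Dppa3 tile, and between D12 and D0 in the others except the first and the fourth tile after Dppa3.

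Counted over the locus, 7 of 11 tiles were called lower in iPSC than in D0, where 9.42% of all tiles were, and 0 were called higher, where 4.02% were. The median difference was -22.9 points over the 11 tiles and -1.76 points over all 94337. Between iPSC and D12, 9 of 11 tiles were called higher, where 79.8% of all tiles were, and 0 were called lower, where 1.48% were. The median difference was +28.7 points in the locus and +43.7 points over all tiles. By sites, 103 of 165 were called lower in D12 than in D0, where 52.3% of all sites tested were, and 53 of 149 were called higher in iPSC than in D12, where 50.6% were. Of these 53 sites, 48 lay between Dppa3 and Nanog, where 88 sites were tested, a share near that of all sites. In Dppa3 4 of 29 were called higher, between Gdf3 and Dppa3 1 of 2, and in Gdf3 0 of 30. The 2 comparisons with iPSC share their iPSC libraries, and those with D0 share their D0 libraries.

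**Figure D5:**
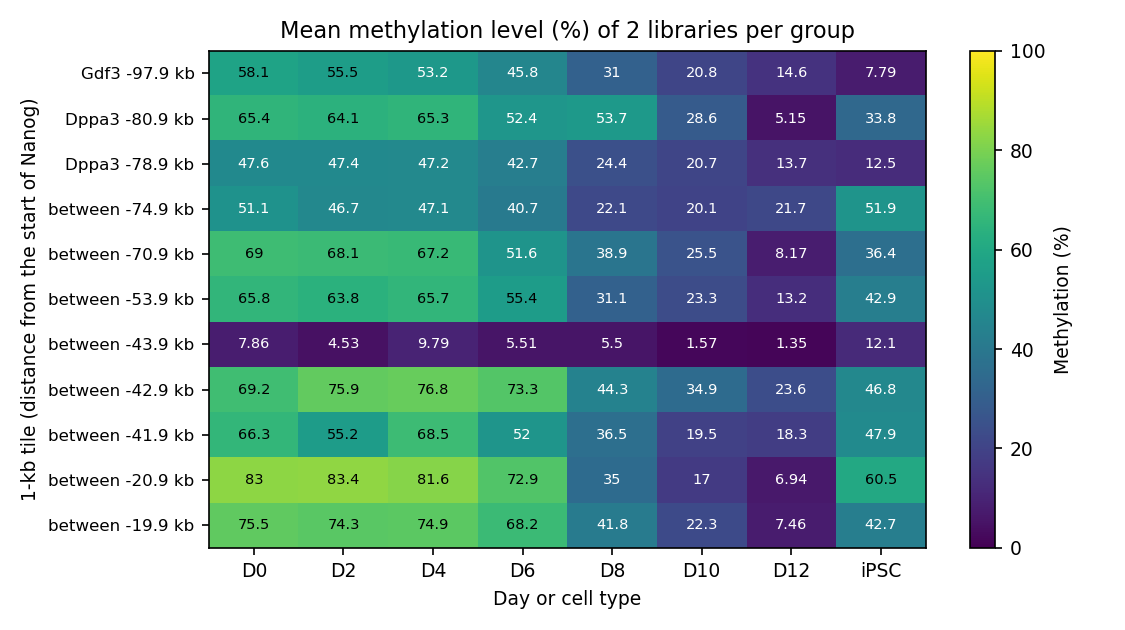
Mean methylation level in percent (colour and printed value) of both libraries per group for each of the 11 tiles, from the Gdf3 tile at the top to the tile nearest Nanog at the bottom, by day from D0 to D12 and in iPSCs. The Gdf3 tile has the lowest iPSC value, 7.79%, and the tile centred 20.9 kb before Nanog the highest, 60.5%.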

How the data were processed

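Genomic DNA of 16 samples was profiled by RRBS: per the labels' protocols it was cut with MspI, filled in, bisulfite converted and sequenced. The submitters' processing notes name fastp 0.20.1, Bismark 0.23.0 with Bowtie2, methylKit and GRCm39. For the trimming of filled-in bases and for duplicate reads, the settings were not given in the sources used here. The deposited tables give, for each strand of a CpG, the coverage as a count of reads, and the authors listed no site under 10 reads. They also give the percent of those reads with a methylated cytosine, which the authors computed per site. Coverage times percent gave whole reads at every listed site within a tolerance of 0.005 points on the percent, and these were used as methylated and unmethylated counts. The coverage of a library summed over its sites was 39011213 to 107834007, in which a read over several sites counts at each of them.

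Gene windows ran from 3000 bp before the start to the end of the gene, and for Dppa3, whose end is not stated, to 4000 bp past its start. A window's level is methylated reads over all reads at sites listed in all 16 libraries. Tiles of 1000 bp with at least 3 such sites were fitted with edgeR 4.0.16 (R 4.3.3), with an effect per library, a methylation coefficient per group and 1 common dispersion. Sites listed in both libraries of both groups were fitted with a quasi-binomial model whose dispersion was moderated with limma 3.58.1 and held at 1 or more. The prior had infinite degrees of freedom in every contrast, so genome-wide values of the dispersion replaced each site's own. The trend of that dispersion with coverage was added after the model was tested on simulated data. Both tests were adjusted by Benjamini-Hochberg over all tiles or all sites. Other packages were pandas 2.3.3 and numpy 2.4.6 under Python 3.11.15, and figures were drawn with matplotlib 3.10.9.

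Named are the 3 genes, the tiles of the locus, the site with the largest difference among called sites per window and main contrast, and the listed site nearest to each start. A list of other pluripotency genes and a rule for tiles like the Nanog window were set but not used, since no annotation of GRCm39 was at hand and that window held no site. The locus and these rules were chosen with earlier results of these data known. Alternatives were a minimum of 20 reads, a minimum difference of 25 points, merged strands, other sets of sites, other models, a replicate block and each library left out.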

Additional observations from a re-analysis of the deposited data

How the results depend on the processing

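Single sites have a median coverage of 24 reads, and 2 libraries per group leave a smallest exact p of 0.333 for any window. Stricter site sets lowered counts partly because they test fewer sites. For other changes the cause was not tested. Unnamed settings kept each window difference within the spread of its libraries and each count of calls within 1.5 times. Leaving out 1 of 2 libraries cannot move a window difference past that spread, so for windows it is no check. No called site or tile named here changed direction in the fits run. Tiles and sites that were not called could turn, as the tile 122609001 did between iPSC and D0, from -6.57 points over sites common to both groups to 6.14 points with 1 library left out.

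For windows, D12 against D0 gave -53.0 points in Gdf3 with at least 20 reads (-43.4 in the report), -31.2 in Dppa3 over all listed sites and -60.3 within 1000 bp of its start (-42.0). In the stretch between Dppa3 and Nanog it was -46.8 as a mean over sites and -55.5 without CpGs whose strands disagree (-50.8). For the whole locus it was -45.1 as a mean over sites, -45.3 over all listed sites and -52.9 without those CpGs (-48.7). For iPSC against D0, the stretch had -18.0 as a mean over sites (-20.9), and the locus had -26.6 over all listed sites, -21.9 with at least 20 reads and -26.3 without those CpGs (-24.6). For iPSC against D12, Dppa3 turned to -0.363 over all listed sites and -0.574 with at least 20 reads, and stood at 28.7 near its start (7.48). The stretch had 28.9 as a mean over sites, 27.1 over all listed sites and 33.6 without those CpGs (29.9), and the locus 21.0, 18.7 and 26.6 (24.1).

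For sites called lower, at least 20 reads left 66 at D12 (103), 48 at D10 (103), 28 at D8 (61) and 1 in iPSC against D12 (6), and 35 sites higher in iPSC than D12 (53). Sites listed in all 16 libraries left 59 lower at D12, 56 at D10, 41 in iPSC against D0 (69) and 1 in iPSC against D12. Without moderation of the dispersion, 36 were lower in iPSC than D0 and 1 at D6 (6). At D6, a minimum of 25 points left 3 lower. For sites called higher, the 2 at D12 became 0 without moderation, with at least 20 reads and among sites listed in all libraries. The 2 at D8 became 1, 0 and 1 in the same order, and 3 with strands merged. The 1 at D6 became 0 with a minimum of 25 points, without moderation and with strands merged.

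For tiles, sites common to the compared groups gave 12 of 14 lower in iPSC than D0 (7 of 11), 0 lower at D6 (1) and 1 higher at D8 (0). At D6, asking for 25 points left 0 lower, asking for 20 reads per site also 0, and the count was 2 without CpGs whose strands disagree, and 4 with the quasi-binomial model.

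With 1 library left out, the sites called were 0 to 4 higher at D12, 41 to 56 lower in iPSC than D0, 1 to 10 lower in iPSC than D12, 0 to 3 lower and 0 higher at D6, and 37 to 50 lower and 0 to 3 higher at D8. The tiles called were 0 to 1 lower in iPSC than D12, 0 lower at D6 and 5 to 6 lower in iPSC than D0. With a replicate block, 1 site was higher at D12, and 2 were lower and 0 higher at D6, while tiles called were 10 lower at D12, 7 lower in iPSC than D0 and 9 higher in iPSC than D12, as without it. No pairing by replicate number was detected, as over 28 pairs of groups the deviations of same-numbered libraries correlated between -0.0144 and 0.0078. Counting error in each tile can hide a pairing, so this does not exclude one.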

Other observations

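Between Dppa3 and Nanog, 6 sites near the minimum coverage were listed in D12 replicate 1 alone and enter no comparison. The 3 at 122654625 to 122655115 had 100%, 84.6% and 100% of 13 reads each. The 3 at 122673367 to 122673455 had 0 of 10 reads methylated each, which allows up to 30.0%.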
